A study of Mus musculus with 9 samples.

Results

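The lysosome genes are a set of 37 genes that encode the digestive enzymes, membrane proteins, acid pump and master regulator of the lysosome. They were chosen by name, by a rule that uses no measured value, but with earlier results of these data known. They are 37 of the 24364 genes counted. All 37 passed the filter on low values and are among the 12101 genes tested. They comprise 10 peptidases (the cathepsins, legumain and tripeptidyl peptidase), 6 glycosidases, 6 genes of lipid degradation and soluble cofactors, 8 membrane proteins, 6 genes of the proton pump and the regulator gene Tfeb.

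The lysosome is the acidic compartment in which a cell breaks down proteins, glycans, lipids and whole organelles. Its enzymes are made in the endoplasmic reticulum, are mostly tagged with mannose 6-phosphate, and reach the lysosome through sorting receptors. A vacuolar ATPase pumps protons into the lumen, and heavily glycosylated membrane proteins line its wall. The transcription factor TFEB and its relatives bind CLEAR elements, which carry a CACGTG core, in the promoters of many of these genes. Macrophages and osteoclasts are rich in lysosomal enzymes, and the azurophil granules of promyelocytes are lysosome-related organelles.

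Expression was measured by polyA RNA sequencing of sorted GFP+ acute promyelocytic leukemia (APL) cells of strain FVB N/J. The leukemia came from transgenic mice in which the hMRP8 promoter, active in myeloid cells, drives PML/RARα, the fusion protein of APL. Bone marrow cells were labeled with the GFP retrovirus MigR1 and transplanted into syngeneic recipients, and GFP+ cells were taken from the bone marrow. Recipients in 3 libraries had been given all-trans retinoic acid (ATRA, 10 mg/kg) and those in 3 libraries arsenic trioxide (ATO, 4 mg/kg) by daily intraperitoneal injection for 6 days, and those in 3 control libraries neither drug. All 9 libraries therefore share the transgene, the GFP label and the transplantation. Whether the controls were injected with solvent, and how many primary leukemias were used, is not stated. The 3 samples of a group are called biological replicates, but nothing in the labels ties each to an animal of its own, and the p-values cover no more than the spread between these libraries, which may be technical.

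Total reads on genes were 12192491 to 25511738 per library. The promyelocyte granule genes Mpo and Elane were at 49869 to 288247 and 54867 to 227965 scaled reads, and no gene of that list of 6 was at 0 in any library. Scaled reads are read counts divided by a size factor for each library. Control 2 and ATRA 3 stood apart from their groups on several genes of maturing neutrophils (Ltf, Camp and Ngp). Chil3 of the same list did not set them apart, at 435663 scaled reads in ATRA 2, 467733 in ATRA 3, 575724 in control 2 and 531948 in control 3. Ltf, the lactoferrin gene of neutrophil specific granules, was at 10511, 10331 and 1381 scaled reads in the ATRA libraries, 7804, 11692 and 11975 in the ATO libraries, and 2109, 24195 and 2329 in the control libraries. Calls that changed without these libraries are given beside the genes concerned. The name of a sheet in the deposited tables also joins control 2 and ATRA 3 without saying why, so it cannot be told whether their labels or their use by the authors differ from those of the other libraries. The RNA comes from bulk sorted cells, so fewer cells of a type and less RNA per cell cannot be told apart.

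Promoter sequences are shown for 4 members to set the regulator's binding motif beside the expression data: Mcoln1 and Ctsd, which hold the long CLEAR core and were called in neither comparison, Lgmn, which holds the short core and fell with both drugs, and Neu1, which rose with both and holds neither in its window. Each is the 250 bases before the annotated start in RefSeq (build GRCm38.p6), read 5′ to 3′ on the gene's strand. Capitals mark TCACGTGA in Mcoln1 and Ctsd and CACGTG in Lgmn. Mcoln1 and Ctsd each hold a further bare CACGTG, farther from the start, that is left in lower case. The windows are chr8:3500269-3500518 (plus strand) for Mcoln1, chr7:142387828-142388077 (minus strand) for Ctsd, chr12:102439093-102439342 (minus strand) for Lgmn and chr17:34931003-34931252 (plus strand) for Neu1.
Mcoln1: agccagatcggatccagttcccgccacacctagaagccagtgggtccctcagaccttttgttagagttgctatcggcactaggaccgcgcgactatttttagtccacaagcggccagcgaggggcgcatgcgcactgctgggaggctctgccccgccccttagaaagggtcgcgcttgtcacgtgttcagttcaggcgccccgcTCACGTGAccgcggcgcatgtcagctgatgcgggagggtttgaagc
Ctsd: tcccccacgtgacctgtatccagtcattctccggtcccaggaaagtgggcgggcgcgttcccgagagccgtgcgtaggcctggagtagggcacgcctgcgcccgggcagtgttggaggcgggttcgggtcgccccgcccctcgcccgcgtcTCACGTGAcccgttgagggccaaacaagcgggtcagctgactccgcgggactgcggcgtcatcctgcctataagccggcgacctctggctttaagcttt
Lgmn: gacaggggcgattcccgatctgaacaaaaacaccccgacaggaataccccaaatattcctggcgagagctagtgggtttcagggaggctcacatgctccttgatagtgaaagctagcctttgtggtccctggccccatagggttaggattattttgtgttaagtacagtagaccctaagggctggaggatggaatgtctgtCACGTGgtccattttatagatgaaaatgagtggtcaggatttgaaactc
Neu1: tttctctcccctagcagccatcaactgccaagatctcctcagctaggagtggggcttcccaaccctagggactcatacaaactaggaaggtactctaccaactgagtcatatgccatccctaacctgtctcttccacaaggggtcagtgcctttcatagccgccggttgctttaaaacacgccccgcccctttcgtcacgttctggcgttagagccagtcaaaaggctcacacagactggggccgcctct

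The capitals begin 46 bases before the start in Mcoln1, 99 in Ctsd and 49 in Lgmn. The search covered 32851 RefSeq windows from 250 bases before to 50 after each start, for 27025 genes and 30 of the 37 members. A gene was counted if any of its windows held the motif. TCACGTGA, which reads the same on both strands and contains CACGTG, was in 6 of the 30 members (Ctsa, Ctsd, Mcoln1, Cln3, Atp6v0d1 and Atp6v1a), against 1.12% of all genes. The bare CACGTG was in 11 of the 30, against 8.09%. Of the 6 members with a window that changed with the drugs, 0 held TCACGTGA and 2 (Ctsl and Lgmn) held CACGTG. Of the 24 with a window that were not called, 6 held TCACGTGA and 9 held CACGTG. A match is a description of the letters in the window and not a measured binding site.

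Psap, the prosaposin gene, and Ctsd, the gene of the aspartic protease cathepsin D, were the most abundant members per kilobase of exon in the control libraries. Levels per kilobase allow genes to be compared, and they are given as mean scaled reads per kilobase over 3 libraries. Psap averaged 7063 in ATRA, 8540 in ATO and 24075 in control libraries, and ranked 3rd, 3rd and 1st of 37. Ctsd averaged 8539, 13630 and 16329 in ATRA, ATO and control libraries, and ranked 1st, 1st and 2nd. Both were above the 99th percentile of tested genes in controls (99.7 and 99.6). The progranulin gene Grn, the membrane protein genes Lamp1 and Cd63, and the carboxypeptidase gene Ctsz followed, at 5715 to 6436 in controls. Several members changed rank with treatment. Ctsl ranked 24th with ATRA and 18th with ATO, against 9th in controls. Ctss ranked 20th and 24th, against 10th, and Lgmn 36th with both drugs, against 22nd. The lowest member in controls was Npc1 (115 scaled reads per kilobase), and with either drug it was Atp6v0d2 (23.4 with ATRA and 31.4 with ATO).

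**Figure D1:**
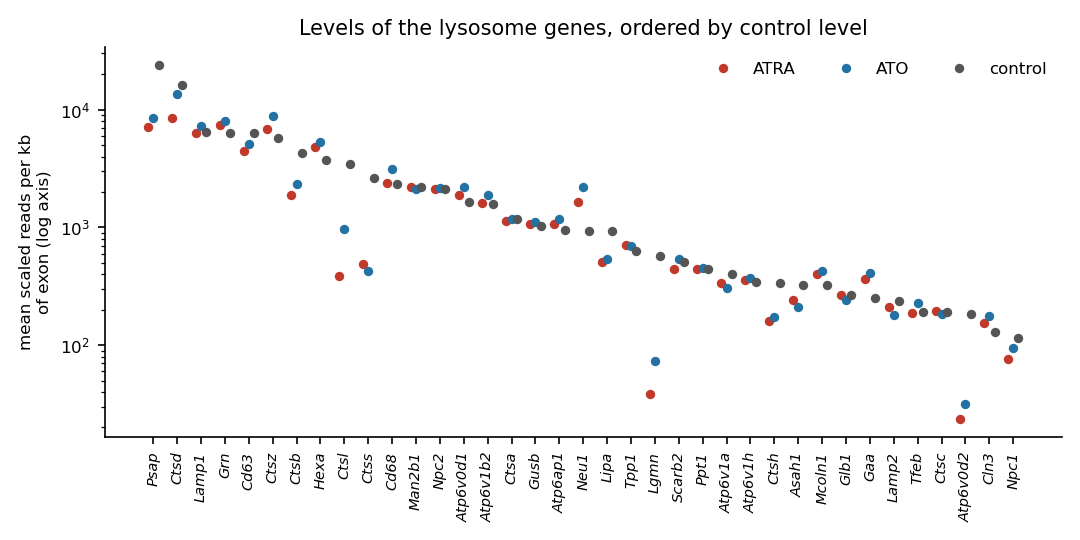
Mean level of each of the 37 lysosome genes in ATRA, ATO and control libraries (3 libraries each), in scaled reads per kilobase of exon on a log axis, with genes ordered by the control level. The points of Psap, Ctsb, Ctsh, Ctsl, Ctss, Lipa, Lgmn and Atp6v0d2 are set apart, with both drugs below control, while most other genes have 3 points close together.

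The question of each drug comparison was which genes APL cells change in vivo under that drug. A gene was called at a Benjamini-Hochberg adjusted p under 0.05 over all tested genes (limma) and a fold change over 1.5. With ATRA 8 of the 37 members fell and 1 rose, where 4.26% of all tested genes fell and 1.34% rose. With ATO 8 fell and 1 rose, where 8.55% of all tested genes fell and 6.13% rose. The genes called with ATO were the 9 called with ATRA. Those that fell were Lgmn, Ctsl, Ctss, Ctsb, Ctsh, Psap, Lipa and Atp6v0d2, and the gene that rose was the sialidase gene Neu1. The other 28 members were called in neither comparison. The 2 comparisons share their 3 control libraries, so they are not independent of each other.

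The median log2 fold change over the 37 members was -0.007 with ATRA and 0.037 with ATO, against -0.006 over all tested genes in both comparisons. Among the 28 members not called, log2 fold changes ran from -0.80 to 0.61 with ATRA and from -0.63 to 0.77 with ATO, and 21 and 16 of them lay within 0.3 of 0. ATRA and control ranges did not overlap for 9 members with ATRA lower and 4 with ATRA higher, where 12.5% of all tested genes were lower and 11.5% higher in this way. For ATO the counts were 9 lower and 8 higher, where 16.4% and 15.9% of all tested genes were. An unadjusted p under 0.05 was reached by 10 members lower and 3 higher with ATRA (10.4% and 8.76% of all tested genes) and by 9 lower and 8 higher with ATO (18.2% and 16.6%). Counted by class, 5 of 10 peptidases fell, 2 of 6 genes of lipid degradation and cofactors fell, 1 of 6 pump genes fell, 1 of 6 glycosidases rose, and 0 of 8 membrane protein genes passed the test, with either drug (limma). The peptidase count was 3 with ATRA without ATRA 1, control 1 or control 3, and with ATO 3 without ATO 1 or ATO 3 and 2 without ATO 2 or control 3. The lipid and cofactor count was 0 with each drug without control 3, and 1 with ATRA without ATRA 1 or ATRA 2 and with ATO without ATO 2. The glycosidase count was 0 with ATRA without ATRA 1, ATRA 2 or control 3, and with ATO 2 without ATO 1 and 3 without control 1. For the membrane protein genes, edgeR and DESeq2 also called 0, and an unadjusted p under 0.05 was reached by 1 gene lower with ATRA and 2 higher with ATO.

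**Figure D2:**
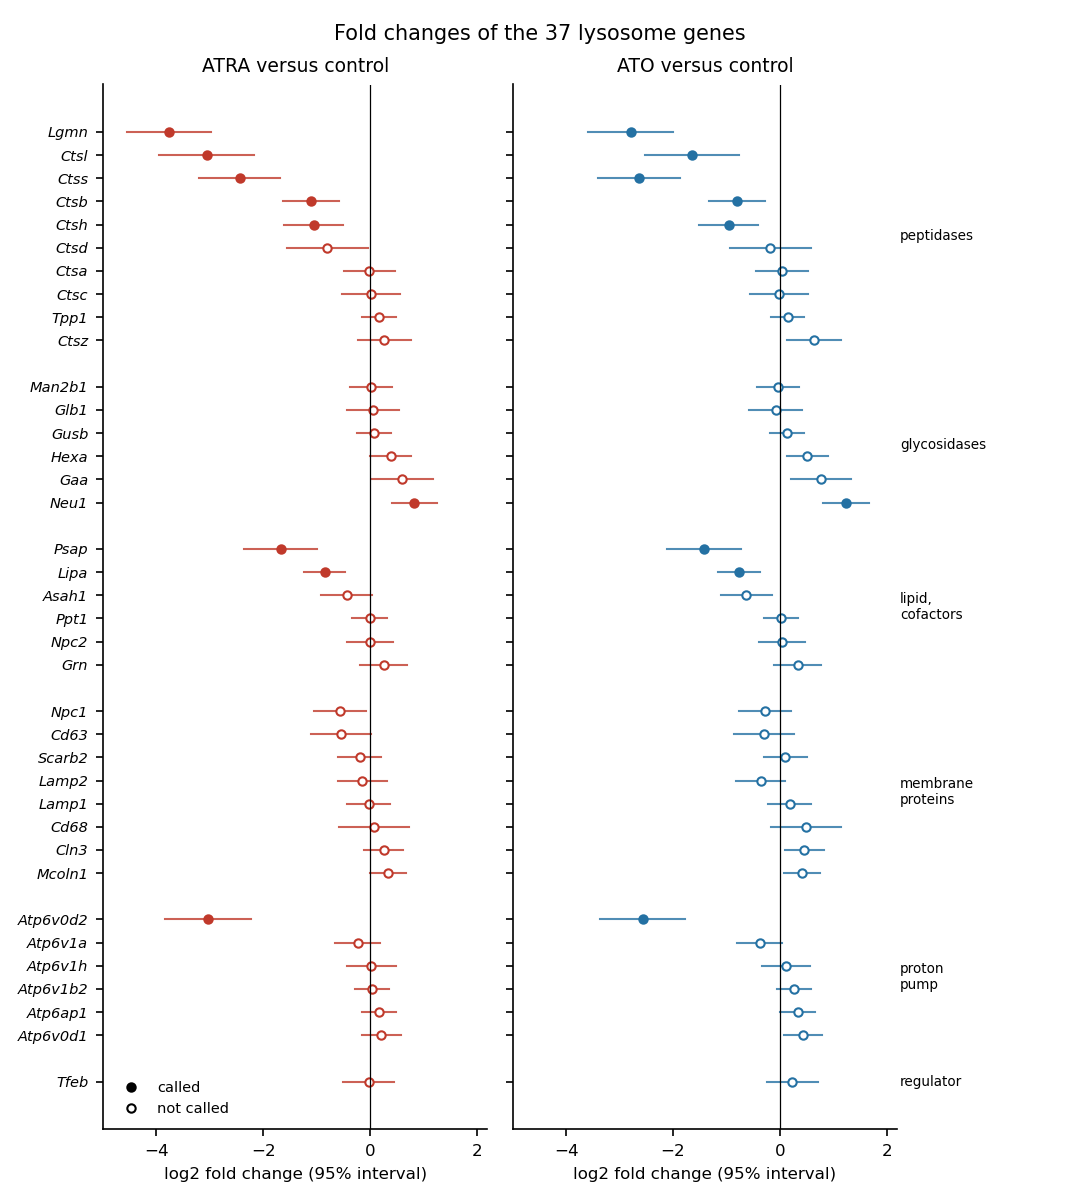
Log2 fold change of each lysosome gene (points) with its 95% interval (lines) for ATRA versus control on the left and ATO versus control on the right, grouped by class from peptidases at the top to the regulator at the bottom. Filled points mark called genes, 8 lower and 1 higher in each panel. Among the open points the farthest from 0 are Ctsd with ATRA (-0.80) and Gaa with ATO (0.77).

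Legumain and 4 cathepsin genes fell with both drugs. Lgmn encodes legumain, an asparaginyl endopeptidase that processes other cathepsins (mm9, chromosome 12, 103632294 to 103678023). It had 59.4, 101.3 and 110 scaled reads in the ATRA libraries and 149, 178 and 189 in the ATO libraries, against 1704, 598 and 1650 in the controls. Neither drug group overlapped the controls, and control 2 was the lowest control. The level was 13.6-fold lower with ATRA (log2 -3.76, SE 0.37, adjusted p = 0.000118) and 6.94-fold lower with ATO (log2 -2.80, SE 0.37, adjusted p = 0.0009), and both calls held in all 21 alternatives.

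Ctsl encodes cathepsin L, a cysteine endopeptidase (chromosome 13, 64464522 to 64471614). Its libraries read 457, 702 and 1125 with ATRA and 1647, 2080 and 2017 with ATO, against 8633, 2710 and 8959 in controls. The 3 groups did not overlap, with ATRA lowest and ATO between. Its log2 change was -3.06 with ATRA (SE 0.41, adjusted p = 0.000781) and -1.64 with ATO (SE 0.41, adjusted p = 0.0231). The ATO call was lost without ATO 2 (adjusted p = 0.0591), ATO 3 (0.0593) or control 3 (0.142), while the ATRA call held in all 21 alternatives.

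Ctss encodes cathepsin S, a cysteine endopeptidase of antigen-presenting cells that trims the MHC class II invariant chain (chromosome 3, 95330708 to 95360325). It had 385, 806 and 806 scaled reads with ATRA and 398, 509 and 817 with ATO, against 3680, 2217 and 4911 in controls. The drug groups covered nearly the same range, well below the lowest control. On the log2 scale the change was -2.44 with ATRA (SE 0.35, adjusted p = 0.00127) and -2.64 with ATO (SE 0.35, adjusted p = 0.000969), and both calls held in all 21 alternatives.

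Ctsb and Ctsh fell by less. Ctsb encodes cathepsin B, an abundant cysteine protease (chromosome 14, 63741302 to 63764758), and had 8396, 9063 and 9384 scaled reads with ATRA and 9842, 11126 and 12117 with ATO, against 25581, 12226 and 22821 in controls. ATO 3 and control 2 were almost level. The log2 change was -1.11 with ATRA (SE 0.24, adjusted p = 0.0167) and -0.81 with ATO (SE 0.24, adjusted p = 0.0422). Of its 4738 exonic bases 769 overlap exons of Fdft1 on the opposite strand, and whether the counting used strand is not given in the sources used here. The ATRA call was lost without ATRA 1 (adjusted p = 0.0721), ATRA 2 (0.0562), control 1 (0.0546) or control 3 (0.141). The ATO call was lost in 10 of the 21 alternatives, those without ATRA 1 (0.0593), ATRA 2 (0.0638), ATO 1 (0.084), ATO 2 (0.103), ATO 3 (0.0812), control 1 (0.0794) or control 3 (0.187) and those with no filter (0.053), only 2 groups fitted (0.0775) or the length trend removed (0.0645).

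Ctsh encodes cathepsin H, an aminopeptidase (chromosome 9, 89948990 to 89970927). It had 503, 700.3 and 474 scaled reads with ATRA and 451, 569 and 791 with ATO, against 1352, 826 and 1332 in controls, and its highest ATO library lay just under control 2. Its log2 change was -1.05 with ATRA (SE 0.26, adjusted p = 0.0302) and -0.96 with ATO (SE 0.26, adjusted p = 0.0297). The ATRA call was lost without ATRA 1 (0.117), ATRA 3 (0.0983), control 1 (0.0784) or control 3 (0.214) and with a mean of at least 50 required (0.0513), and the ATO call without ATO 1 (0.0699), ATO 2 (0.0846) or control 3 (0.155), all given as adjusted p.

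**Figure D3:**
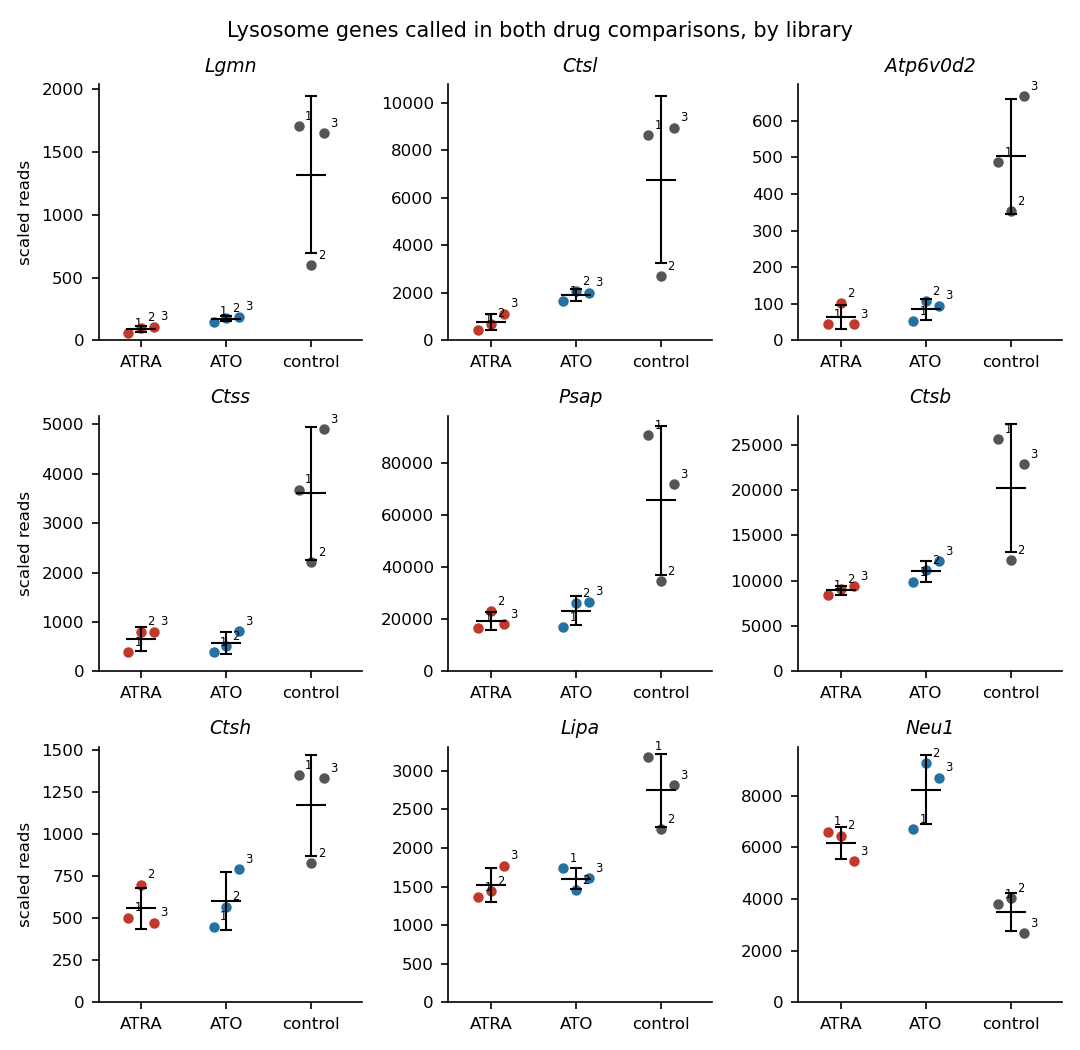
Scaled reads of the 9 lysosome genes called with both drugs, in each ATRA, ATO and control library (points, numbered by replicate), with the mean and SD of 3 libraries (bars), on linear axes from 0. Control 2 is the lowest control for the 8 genes that fell, and Neu1 is the gene with both drug groups above the controls.

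The 5 peptidase genes that were not called included the most abundant. Ctsd had 21930, 23192 and 19404 scaled reads with ATRA and 21895, 38046 and 43063 with ATO, against 61874, 20549 and 40974 in controls. Control 2 lay within the ATRA range, and the ATRA difference of -0.80 (SE 0.35) had an adjusted p of 0.236. Without control 2 it was -1.23 and passed the test (adjusted p = 0.0251), and it was -1.16 without control 2 and ATRA 3 (adjusted p = 0.0461). The ATO difference of Ctsd was -0.18 (95% interval -0.94 to 0.58). Ctsz, at 8361 to 12386 scaled reads with ATRA, 9866 to 14726 with ATO and 6260 to 10324 in controls, differed by 0.27 with ATRA (-0.085 without control 2 and ATRA 3) and 0.64 with ATO (adjusted p = 0.0755), and the ATO difference passed the test without ATO 1 (adjusted p = 0.0454) or control 1 (0.0292). The protective protein gene Ctsa and Ctsc, the dipeptidyl peptidase that activates granule serine proteases, differed from control by 0.04 or less on the log2 scale with either drug. Their 95% intervals were wide, at -0.49 to 0.47 for Ctsa and -0.53 to 0.57 for Ctsc with ATRA. Without control 2 the ATO differences were -0.208 for Ctsa and 0.195 for Ctsc, and without ATRA 3 the ATRA difference of Ctsc was -0.188. Tpp1, a tripeptidyl peptidase gene, differed by 0.17 with ATRA and 0.14 with ATO.

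Among the glycosidases Neu1 stood alone in passing the test. It encodes the lysosomal sialidase, which works in a complex with cathepsin A and beta-galactosidase (chromosome 17, 35068198 to 35072898). It had 6606, 6457 and 5468 scaled reads with ATRA and 6717, 9259 and 8697 with ATO, against 3818, 4035 and 2679 in controls. Every treated library lay above every control. The level was 1.78-fold higher with ATRA (log2 0.83, SE 0.20, adjusted p = 0.0255) and 2.36-fold higher with ATO (log2 1.24, SE 0.20, adjusted p = 0.00242). The ATO call held in all 21 alternatives, while the ATRA call was lost without ATRA 1 (adjusted p = 0.112), ATRA 2 (0.106) or control 3 (0.192). The genes of its partners, Ctsa and the beta-galactosidase gene Glb1, were not called. Glb1 differed by 0.05 with ATRA (95% interval -0.44 to 0.54, and -0.28 without control 2 and ATRA 3) and -0.08 with ATO (-0.57 to 0.41).

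Gaa, the acid alpha-glucosidase gene that degrades glycogen, had 2062, 1798 and 1412 scaled reads with ATRA and 1740, 2215 and 1900 with ATO, against 1677, 734 and 1205 in controls. Its differences of 0.61 and 0.77 did not pass the test (adjusted p = 0.229 with ATRA and 0.0626 with ATO), though the ATO groups did not overlap. The ATO difference passed without control 1 (1.05, adjusted p = 0.0158) and with the length trend removed (0.85, adjusted p = 0.048). Hexa, the gene of the hexosaminidase A alpha subunit, lay above the controls in every treated library, at 8610 to 9590 scaled reads with ATRA and 8381 to 11147 with ATO, against 5689 to 8077 in controls. Its differences were 0.39 with ATRA (adjusted p = 0.26) and 0.51 with ATO (adjusted p = 0.0672), and the ATO difference passed without ATO 1 (adjusted p = 0.0485) or control 1 (0.0284). Gusb and Man2b1, the beta-glucuronidase and lysosomal alpha-mannosidase genes, differed by 0.13 or less with either drug.

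Psap and Lipa fell among the genes of lipid degradation and cofactors. Psap encodes prosaposin, the precursor of the saposins that present sphingolipids to their hydrolases (chromosome 10, 59740375 to 59765345). It had 16547, 23147 and 18133 scaled reads with ATRA and 16959, 26192 and 26762 with ATO, against 90747, 34550 and 71800 in controls. The drug groups overlapped each other and lay below all controls. On the log2 scale the change was -1.67 with ATRA (SE 0.32, adjusted p = 0.00725) and -1.41 with ATO (SE 0.32, adjusted p = 0.0155), and both calls were lost without control 3 (adjusted p = 0.0721 and 0.102).

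Lipa encodes lysosomal acid lipase, which hydrolyzes cholesteryl esters and triglycerides (chromosome 19, 34566808 to 34601964). It had 1359, 1441 and 1769 scaled reads with ATRA and 1736, 1458 and 1610 with ATO, against 3180, 2241 and 2810 in controls. The drug groups shared a narrow range below the controls. The log2 change was -0.84 with ATRA (SE 0.18, adjusted p = 0.0137) and -0.77 with ATO (SE 0.18, adjusted p = 0.018). The ATRA call was lost without ATRA 1 (adjusted p = 0.0794), ATRA 2 (0.0721) or control 3 (0.106), and the ATO call without ATO 2 (0.0707) or control 3 (0.103).

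The acid ceramidase gene Asah1 had 842, 598 and 702 scaled reads with ATO, against 850.0, 1162 and 1319 in controls, so that the ranges nearly touched. Its ATO difference of -0.63 (SE 0.22, adjusted p = 0.0686) passed the test with DESeq2 (adjusted p = 0.0459), without control 1 (0.0236) and with the length trend removed (0.0414). Its ATRA difference was -0.43 (adjusted p = 0.309). The cholesterol-binding protein gene Npc2 differed by 0.04 or less and the palmitoyl thioesterase gene Ppt1 by 0.03 or less with either drug, with 95% intervals of -0.43 to 0.43 and -0.33 to 0.32 with ATRA, and the ATRA difference of Npc2 was -0.31 without control 2 and ATRA 3. Grn, among the most abundant members, differed by 0.26 with ATRA (95% interval -0.18 to 0.70) and 0.34 with ATO (-0.11 to 0.78).

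The 8 membrane protein genes showed no called change (limma), with log2 differences of -0.56 to 0.34 with ATRA and -0.36 to 0.49 with ATO. Lamp1, an abundant glycoprotein gene of the lysosomal wall, had 12700, 13557 and 16451 scaled reads with ATRA and 16014, 14728 and 18656 with ATO, against 15701, 12078 and 15758 in controls. The 3 groups overlapped, and its difference was -0.03 with ATRA (95% interval -0.42 to 0.37) and 0.19 with ATO (-0.21 to 0.58). Lamp2, its relative needed for autophagosome fusion, differed by -0.14 with ATRA and -0.36 with ATO. Cd63, a tetraspanin gene, was at 2917 to 5454 scaled reads with ATRA, 4151 to 6385 with ATO and 4921 to 7382 in controls, and differed by -0.54 with ATRA (adjusted p = 0.282) and -0.30 with ATO. Cd68, a macrophage-rich lysosomal glycoprotein gene, had 2366, 2650 and 4011 scaled reads with ATRA and 2939, 4119 and 4867 with ATO, against 4103, 1736 and 2995 in controls. Its groups overlapped, and its difference was 0.08 with ATRA (95% interval -0.58 to 0.73) and 0.49 with ATO (-0.17 to 1.14). The ATRA difference turned to -0.26 without control 2, -0.15 without ATRA 3 and -0.49 without both, and was called in none of these fits.

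Mcoln1, the gene of a lysosomal calcium channel, and Cln3, a membrane protein gene mutated in human Batten disease, lay above the controls in every treated library. Mcoln1 had 1344 to 1483 scaled reads with ATRA and 1414 to 1573 with ATO, against 1002 to 1309 in controls. The difference was 0.34 with ATRA (adjusted p = 0.263) and 0.42 with ATO (adjusted p = 0.0857). Cln3 differed by 0.26 with ATRA and 0.46 with ATO (adjusted p = 0.0775), and the ATO difference passed with the length trend removed (0.62, adjusted p = 0.0366). The cholesterol transporter gene Npc1 had 850.3, 842 and 765 scaled reads with ATRA, against 1459, 878 and 1358 in controls. Its ATRA libraries lay below the controls, and the difference of -0.56 (adjusted p = 0.201) passed only without control 2 (-0.78, adjusted p = 0.0484). Scarb2, the receptor that carries glucocerebrosidase to the lysosome, differed by -0.19 with ATRA and 0.10 with ATO.

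In the proton pump Atp6v0d2 fell and the rest did not pass the test. Atp6v0d2 encodes the d2 isoform of a membrane-sector subunit, known from osteoclasts and macrophages (chromosome 4, 19803988 to 19849752). It had 45.1, 101.3 and 44.7 scaled reads with ATRA and 53.1, 107 and 95.2 with ATO, against 488, 354 and 668 in controls. Every treated library lay far below the lowest control. Its log2 change was -3.04 with ATRA (SE 0.37, adjusted p = 0.00041) and -2.57 with ATO (SE 0.37, adjusted p = 0.00147), and both calls held in all 21 alternatives.

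Atp6v0d1, the gene of the ubiquitous isoform of the same subunit, had 3583, 3289 and 3330 scaled reads with ATRA and 3560, 3902 and 4470 with ATO, against 3557, 2676 and 2648 in controls. Its difference was 0.21 with ATRA (95% interval -0.15 to 0.58, adjusted p = 0.518) and 0.43 with ATO (0.07 to 0.80, adjusted p = 0.0921). Neither was called, so no direction is established for this isoform. Per kilobase of exon Atp6v0d1 was at 1897 with ATRA, 2218 with ATO and 1651 in controls, and Atp6v0d2 at 23.4, 31.4 and 185 in the same order of groups. The catalytic-sector genes Atp6v1a, Atp6v1b2 and Atp6v1h and the accessory gene Atp6ap1 differed by -0.23 to 0.17 with ATRA and by -0.37 to 0.33 with ATO. Summed over the 6 pump genes, scaled reads were 17785 to 18307 with ATRA, 19894 to 20623 with ATO and 17591 to 17968 in controls, but as a share of a library's reads the groups overlapped, at 0.105 to 0.108% with ATRA, 0.102 to 0.116% with ATO and 0.105 to 0.115% in controls.

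Tfeb, the regulator, had 1131, 1070 and 980 scaled reads with ATRA and 887, 1527 and 1493 with ATO, against 1308, 966 and 979 in controls. The 3 groups overlapped. The difference was -0.02 with ATRA (95% interval -0.50 to 0.46) and 0.24 with ATO (-0.24 to 0.71). These values are of the transcript only, and the activity of TFEB is known to be set largely by phosphorylation of the protein and its entry into the nucleus.

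The drugs were also compared with each other. Of the 37 members 0 were called between ATO and ATRA by limma, edgeR or DESeq2, as were 0% of all tested genes by limma and edgeR and 0.32% higher and 0.128% lower by DESeq2. At an unadjusted p under 0.05, 2 members were higher with ATO and 0 lower, where 3.32% and 2.99% of all tested genes were. These were Ctsl, with a difference of 1.42 on the log2 scale (95% interval 0.53 to 2.30, adjusted p = 0.426), and Lgmn, with 0.97 (95% interval 0.18 to 1.76, adjusted p = 0.646). Both had all ATO libraries above all ATRA libraries, which held for 7 members, with 0 the other way (7.87% and 7.25% of all tested genes). The Ctsl difference was 1.75 and passed the test (adjusted p = 0.00684) with control 2 and ATRA 3 left out together. The intervals of other called genes held differences of both signs, as for Ctss (-0.96 to 0.56), Atp6v0d2 (-0.34 to 1.27), Psap (-0.43 to 0.95) and Neu1 (-0.02 to 0.83), so these data do not show that the drugs acted alike on them. Over the 37 members the median difference was 0.16, against 0.015 over all tested genes.

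The sum of the 8 genes that fell was 0.164 to 0.213% of a library's reads with ATRA, 0.181 to 0.228% with ATO and 0.347 to 0.790% in controls. It was lowest among controls in control 2, which had the lowest control value for 8 of 8 of these genes and for 24 of all 37 members. How often control 2 was lowest over all tested genes was not determined. Control 2 was also the lowest control for the summed T and NK cell markers and promyelocyte granule markers, but the highest for the summed osteoclast and maturing neutrophil markers. The 28 genes that were not called summed to 0.854 to 0.882% with ATRA, 0.842 to 0.961% with ATO and 0.776 to 1.15% in controls, where the groups overlapped.

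Macrophage markers moved with the genes that fell. The 20 markers summed to 3492 to 4956 scaled reads with ATRA, 4506 to 7410 with ATO and 13104 to 33132 in controls, and control 2 was again the lowest control, as it was for 14 of the 20 markers. Most of the control sum came from Gpnmb and Apoe, with control means of 12027 and 5406 scaled reads. Of 15 markers that could be tested, 9 fell with ATRA, and with ATO 13 fell and 1 rose. Cd163, among the 13, was near the floor, with 3.12, 2.18 and 0 scaled reads with ATO against 10.75, 9.14 and 26.05 in controls. It would not have passed the filter on low values without the controls, so its call is no separate test. Of all tested genes 4.26% fell with ATRA, and 8.55% fell and 6.13% rose with ATO. Gpnmb had 414, 808 and 534 scaled reads with ATRA and 1156, 2064 and 1984 with ATO, against 17955, 4225 and 13902 in controls, and Apoe and C1qa also fell with both drugs. Adgre1, the F4/80 gene, went the other way, with 652, 669 and 1037 with ATRA and 1156, 1202 and 1124 with ATO, against 668, 749 and 708 in controls, and it rose with ATO (log2 0.71, SE 0.19, adjusted p = 0.0299), a call lost without ATO 1 (0.0502), ATO 2 (0.0909), ATO 3 (0.069) or control 3 (0.133). Vsig4, Marco and Timd4, markers of resident macrophages, had at most 3 reads in every library, and between 1 and 4 of the 20 markers were at 0 in a library.

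Markers of other cells moved as well. The 8 T and NK cell markers summed to 17.0 to 82.8 scaled reads with ATRA, 21.8 to 26.3 with ATO and 358 to 698 in controls. All 7 that could be tested fell with both drugs, where 4.26% of all tested genes fell with ATRA and 8.55% with ATO. Cd3e, Cd3g, Cd2 and Ncr1 had at most 3.72 scaled reads in any treated library. They, Gzma and Thy1 passed the filter of 10 scaled reads in 3 libraries only through the controls. The filter therefore favored falls of these genes, and their calls are no separate test. With ATRA 4 of the 7 were called without ATRA 1, 2 without control 1, 3 without control 2 and 1 without control 3. With ATO 4 were called without ATO 2 or ATO 3, 3 without control 1 or control 2 and 2 without control 3. Of the 8 osteoclast markers Calcr and Ocstamp had at most 3 reads in every library, 4 could be tested and Ctsk fell with both drugs, while Acp5 was at 691 to 1314 with ATRA, 746 to 1382 with ATO and 1154 to 1629 in controls. The 6 promyelocyte granule markers summed to 2.69 to 3.65% of reads with ATRA, 2.62 to 3.11% with ATO and 1.16 to 3.19% in controls, where control 2 was the lowest library, and in that list Elane, the neutrophil elastase gene, rose with ATO (log2 1.05, SE 0.30, adjusted p = 0.0371). The Elane call was lost without ATRA 1 (adjusted p = 0.0541), ATRA 2 (0.0579), ATO 2 (0.0869), ATO 3 (0.126), control 2 (0.0875) or control 3 (0.141), without control 2 and ATRA 3 together (0.0888), with no filter (0.0796) and with only 2 groups fitted (0.0723). Of the 7 maturing neutrophil markers tested only Mmp8 was called (limma), lower with ATRA (log2 -3.05, adjusted p = 0.00436) and ATO (log2 -1.7, adjusted p = 0.0482). The part of these cell types in the fall of the lysosome genes was not tested. With control 2 and ATRA 3 left out together, 9 members fell with ATRA (Ctsd joining them) and 8 with ATO, and Neu1 rose with each.

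**Figure D4:**
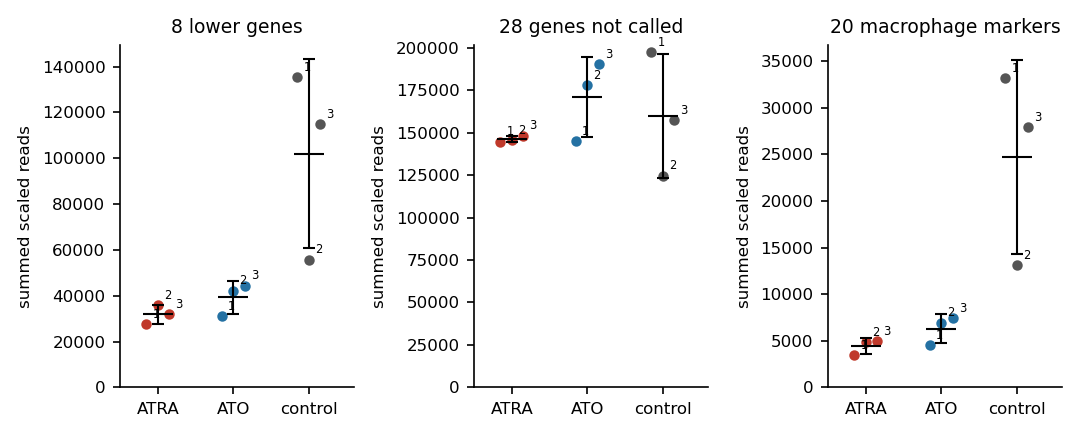
Summed scaled reads in each ATRA, ATO and control library (points, numbered by replicate; bars give the mean and SD of 3 libraries) for the 8 lysosome genes that fell, the 28 that were not called and the 20 macrophage markers. The sums of the 8 genes and of the macrophage markers are lower in all treated libraries and share control 2 as the lowest control, and the sums of the 28 genes overlap between groups.

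Of 82 other lysosome genes outside the 37, 80 were tested. With ATRA 0 rose and 7 fell by limma (0% and 8.75%, against 1.34% and 4.26% of all tested genes), while edgeR called 0 and 8 and DESeq2 1 and 8. An unadjusted p under 0.05 was reached by 8 higher and 9 lower with ATRA (10% and 11.2%), near the 8.76% and 10.4% of all tested genes. With ATO 3 rose and 8 fell (3.75% and 10%, against 6.13% and 8.55% of all tested genes), so the share that fell was near that of all genes. The genes that fell with each drug include Rragd, which reached 10 scaled reads only in the controls. The median log2 difference was 0.009 with ATRA and 0.068 with ATO. Igf2r, a mannose 6-phosphate receptor gene that sorts the enzymes, had 24.9, 19.9 and 9.30 scaled reads with ATRA and 43.7, 42.1 and 16.4 with ATO. Controls had 481, 220.4 and 383. The log2 change of Igf2r was -4.32 with ATRA (SE 0.46, adjusted p = 0.000148) and -3.44 with ATO (SE 0.46, adjusted p = 0.000969). M6pr, the other mannose 6-phosphate receptor gene, was not called (log2 -0.02 with ATRA and 0.23 with ATO). M6pr averaged 5240 scaled reads with ATRA, 6203 with ATO and 5341 in controls. Ctsk, the cathepsin K gene of osteoclasts, fell with both drugs (log2 -2.38 with ATRA and -2.32 with ATO), as did Slc15a3, a peptide and histidine transporter gene of the lysosome (log2 -2.08 with ATRA and -2.07 with ATO). These calls of Ctsk and Slc15a3 were lost without control 3 (adjusted p of 0.0561 and 0.0752 with ATRA and 0.051 and 0.0599 with ATO).

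Slc11a1, a metal ion transporter gene of phagosomes, fell with ATRA (log2 -1.51, adjusted p = 0.0288), a call lost without ATRA 1 (0.123), ATRA 2 (0.11), control 1 (0.0826) or control 3 (0.184) and with a mean of at least 50 (0.0502). Sgsh, the heparan sulfatase gene, fell with ATO (log2 -1.45, adjusted p = 0.0157, and 0.103 without control 3). The genes that rose with ATO were the lysosomal phospholipase gene Pla2g15 (log2 0.97, adjusted p = 0.0185), the dipeptidyl peptidase gene Dpp7 (0.83, adjusted p = 0.0188) and the pump gene Atp6v1e1 (0.66, adjusted p = 0.029). Each of these calls was lost without ATO 2 (adjusted p of 0.0686, 0.0636 and 0.066), ATO 3 (0.0505, 0.0695 and 0.103) or control 3 (0.0852, 0.125 and 0.148). That of Atp6v1e1 was also lost without ATRA 2 (0.0519), with only 2 groups fitted (0.0614) and with the length trend removed (0.103). The number of these genes that fell was 1 with each drug without control 3, 3 with ATRA without ATRA 1 or without ATRA 2 or with a mean of at least 50, 4 with ATRA without control 1, and 5 with ATO without ATO 3. The number that rose was 2 with ATRA and 13 with ATO without control 1, and with ATO 7 without ATO 1 and 0 without ATO 2, ATO 3 or control 3.

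**Figure D5:**
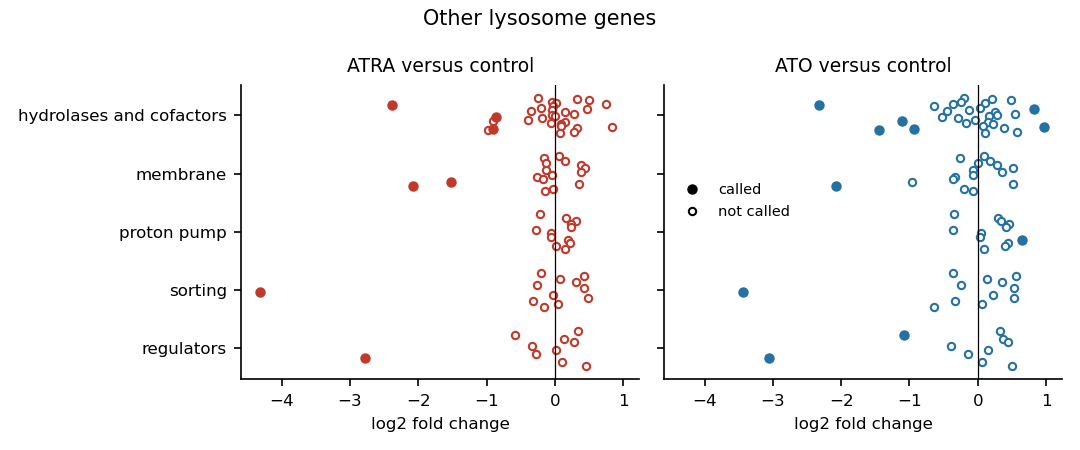
Log2 fold changes of the 80 other lysosome genes tested, by class (rows), for ATRA versus control on the left and ATO versus control on the right, with filled points for called genes. Most points lie within 1 of 0, and the points farthest to the left are Igf2r in the sorting row and Rragd in the regulator row. Rragd is near the floor, at 1.89 to 4.65 scaled reads with ATRA and 0.73 to 4.92 with ATO. Its controls had 30.3, 14.2 and 29.7, and it passed the filter on low values only through them.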

How the data were processed

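PolyA RNA of sorted GFP+ APL cells was sequenced in 9 libraries (3 ATRA, 3 ATO and 3 control), grouped by their labels. Per the methods, the authors used FastQC, cutadapt, STAR on mm9 (uniquely mapped reads), HTSeq-count and DESeq2. For versions and annotation, nothing is given in the sources used here. Besides mm9, hg19 appears in the submitters' processing notes. Reads of FVB mice were aligned to a reference of another strain. The deposited signal values are read counts that the authors divided by a size factor per library, in 2 tables normalized separately with the same controls. The authors' fold change and p-value columns were not used.

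Whole reads were recovered (100% of values whole within 0.001 read), and all 9 libraries were put on a common scale with median-of-ratios factors (0.609 to 1.378). Rows whose symbols had become dates were dropped (27 of 24391, holding no more than 0.173% of any library). The main test was limma 3.58.1 (R 4.3.3) with an intensity trend on log2(scaled reads + 0.5), in a single model of 3 groups, for 12101 genes with at least 10 scaled reads in at least 3 libraries. The pseudocount understates changes of low genes. Calls needed a fold over 1.5 and a p under 0.05 after Benjamini-Hochberg adjustment over all tested genes. The median standard error was 0.23 on the log2 scale, a 95% half-width of 0.50. The fits were tested on simulated data.

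Alternatives were no filter, a mean of at least 50, pseudocounts of 1 and 0.1, upper-quartile scaling, centering on the median gene, DESeq2 1.42.0 and edgeR 4.0.16 on recovered reads, a replicate block, only 2 groups fitted, leaving out each library, leaving out control 2 with ATRA 3, and removal of the transcript length trend. Deviations from the group means correlated between same-numbered libraries at 0.119, 0.162 and 0.331 for ATO with ATRA. For either drug with control these correlations ran from -0.381 to 0.267. Libraries of different numbers correlated at up to 0.308 (ATO 3 with control 1), so the numbers do not establish a pairing. Gene positions and exon lengths are from GENCODE vM1 (mm9). Exons of Ctsa, Ctsb, Ctsd, Ctsz, Ppt1, Lamp1, Npc1 and Cln3 overlap those of other genes.

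The members and lists were chosen with earlier results of these data known. Called members were named library by library, uncalled members by up to 4 per class, and other lysosome genes by up to 4 called per direction with a mean of at least 100. Further uncalled members, Ltf, M6pr, Mmp8, Rragd and the single T and NK cell markers were named after their values were seen.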

Additional observations from a re-analysis of the deposited data

How the results depend on the processing

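No called change with either drug turned direction in any alternative. Counts of members called without a library were 0 to 1 higher and 4 to 10 lower with ATRA, and 1 to 4 higher and 3 to 8 lower with ATO. The lowest counts of genes that fell came without control 3 (4 with ATRA and 3 with ATO), then without ATRA 1 (5 with ATRA) and ATO 2 (4 with ATO). The member higher with ATRA was lost without ATRA 1, ATRA 2 or control 3, and without control 1 there were 4 higher with ATO and without ATO 1 there were 3. The next alternatives were chosen after seeing the data. With the transcript length trend removed, 3 members were higher with ATO. With control 2 and ATRA 3 left out together, 1 member was higher with ATO than with ATRA. The counts over all genes ranged from 22 to 293 higher and 141 to 902 lower with ATRA, and from 87 to 1506 higher and 158 to 1533 lower with ATO, against 162 and 516, and 742 and 1035.

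With the replicate block, the members called were 1 higher and 8 lower with each drug and 0 between the drugs, and it changed no call. Its pairing rests on a correlation alone, and not every library correlated best with its own number. Of single-gene values in all alternatives, 2282 kept their status, called or not called, 35 lost a call and 14 gained one. Most of the 2282 were values not called to begin with, while the 35 losses all fell on the 9 members called with the drugs. Among values that were not called, 33 changed sign in 94 fits, 2 of them for Ctsh and Ctss between ATO and ATRA, and none was larger than 0.358 on the log2 scale to begin with. With 3 libraries a group, differences under the 95% half-width of 0.50 were mostly not detectable.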
